A study of Arabidopsis thaliana with 6 samples.

Results

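Ethylene is a gaseous plant hormone, and 10 genes that perceive it, relay its signal or shape the apical hook are described here in Arabidopsis thaliana, a small crucifer used as a model plant. They are the receptor genes ETR1, ETR2, ERS1 and ERS2, the kinase gene CTR1, the signal carrier EIN2, the transcription factor gene EIN3, the F-box genes EBF1 and EBF2, and the hook gene HLS1. Members were taken by exact gene symbol. All 10 symbols had 1 row each among the 32921 named rows of the count tables, and all 10 had enough counts to be tested. Whole wild-type seedlings were grown in the dark on foil-wrapped agar plates, and each of 2 groups held 3 libraries. The control group heard white noise averaging 10 dB for 48 h, and the traffic noise group heard recorded urban traffic averaging 75 dB for the same time. Kind of sound and loudness differed together between the groups, so they cannot be told apart. The labels do not say whether replicates came from separate plates or seed batches, so the p-values reflect only how far these samples scatter, and that scatter may be technical.

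Ethylene receptors sit in the endoplasmic reticulum membrane and are active when no hormone is bound. Active receptors keep the kinase CTR1 at work, which phosphorylates EIN2 and so holds the pathway off. When ethylene binds, a part of EIN2 is released to the nucleus and EIN3 accumulates, because EBF1 and EBF2, which otherwise mark EIN3 for destruction, are held back. In dark-grown seedlings this pathway shortens and thickens the hypocotyl and tightens the apical hook, the bend that shields the shoot tip as it pushes through soil. Transcripts of ETR2, ERS1, ERS2, EBF2 and HLS1 are known to increase when ethylene is supplied.

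Libraries held 17540009 to 20780363 counts on named rows. Values below are CPM, counts scaled to library size, with TMM factors that correct for library composition. Control replicate 3 stood apart: 16128 loci had any count there, while the other libraries covered 20026 to 20287. The values of the 10 genes are therefore given with and without it, and those of other genes where it moves them by over 1.5 times. Of 12428 loci with at least 47 counts in each of the other 5 libraries, 619 had at most 1 count in that library. By the same measure, the other libraries each lacked 5 to 16 loci. Control replicate 1 had 15.4% of its counts on plastid and mitochondrial loci with a symbol of their own, and the others 9.53% to 11.2%. The libraries carried seedling transcripts, with a summed level of 7914 to 9673 CPM for 6 root markers and 4371 to 6612 CPM for 5 cotyledon and dark-growth markers. Nearly all of the root sum came from PYK10, a root beta-glucosidase gene. The other listed root genes SCR and SHR lay at 11.1 to 24.6 CPM and 31.0 to 47.5 CPM. WOX5, PLT1 and PLT2, regulators of the root tip, lay at 0 to 4.59 CPM in every library, with PLT2 at 0 in 5 of 6. The 5 seed reserve genes summed to 0 to 7.31 CPM in control libraries and 1.97 to 2.44 CPM in traffic noise, and SESA4 was at 0 in all 6 libraries.

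None of the 10 ethylene genes passed the test for a difference between traffic noise and control. In edgeR's quasi-likelihood test, adjusted by Benjamini-Hochberg over 19112 loci, 0 of 10 reached an adjusted p of 0.05, and 0 of 10 had an unadjusted p under 0.05. Over all loci 2 were called, which is 0.0105%, both of them copies of the tRNA gene trnI with lower values, and 7.46% had an unadjusted p under 0.05, 3.48% with higher and 3.98% with lower values. DESeq2 gave an adjusted p to 6 of the 10, called none of them where it called 5% of loci, and had 1 of the 10, ETR2, at an unadjusted p under 0.05, as were 8% of the loci to which it gave a p. limma-voom, which called 0.0733% of loci, also called none of the 10 and had EBF1 and ETR2 at an unadjusted p under 0.05, as were 9.67% of loci. Fitted log2 fold changes were above 0 for 8 of 10 genes, where 52.5% of all loci were, and their median was 0.36 against 0.05 for all loci. Without control replicate 3 all 10 were above 0, but the median was 0.19 against 0.01 for all loci. Because whole seedlings were measured, fewer cells of a type and less RNA per cell cannot be told apart.

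**Figure D1:**
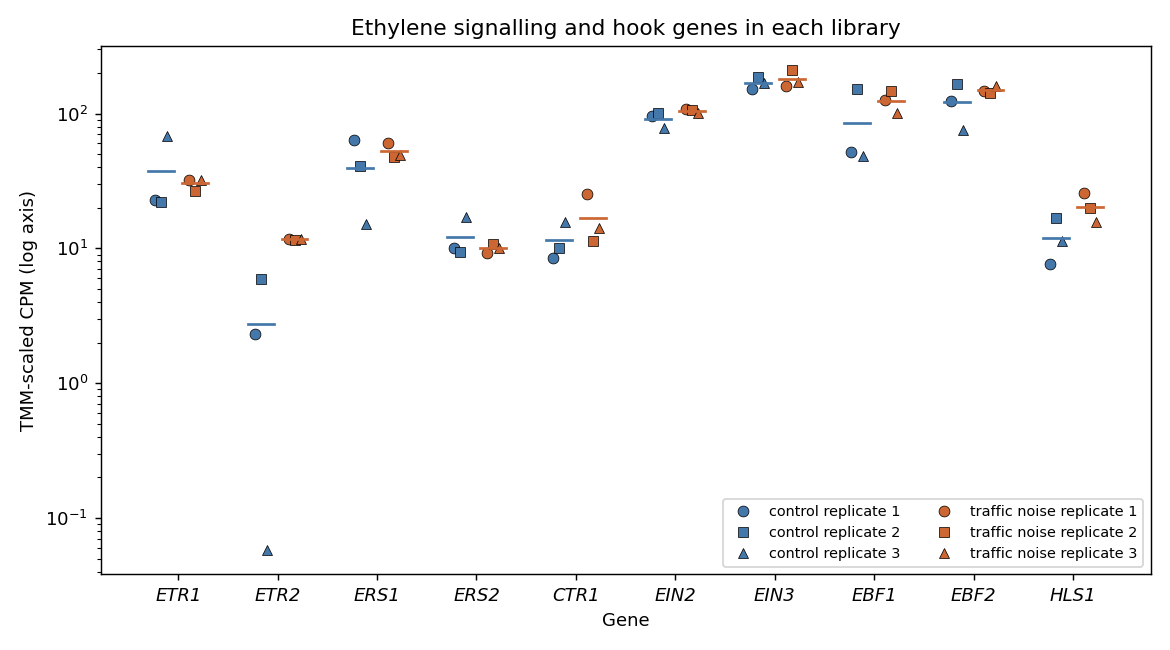
Level of each of the 10 genes in every library, in TMM-scaled CPM on a log axis; circles, squares and triangles are replicates 1, 2 and 3, and lines are group means. ETR2 lies at 11.6 to 11.8 CPM in the 3 traffic noise libraries and at 0.0576 to 5.90 CPM in control, and control replicate 3 is the highest library for ETR1 and ERS2 and the lowest for ETR2 and ERS1.

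Transcript levels spanned a wide range among the 10 genes. Each library read the 3′ ends of transcripts, so a transcript is counted near 1 end whatever its length, and levels can be set side by side only as far as all ends were captured alike. EIN3, the factor that switches on ethylene-responsive genes, was highest with 175 ± 20.9 CPM (SD over all 6 libraries), and lay above EBF2 in 6 of 6 libraries. EBF2 averaged 136 ± 33.1 CPM and lay above EBF1 in 5 of 6. Its counts cannot be assigned to EBF2 alone, as described below, so its place in this order holds for the row only. EBF1 with 104 ± 46.1 CPM and EIN2 with 98.5 ± 10.6 CPM could not be ranked, since EBF1 was the higher of the pair in 3 of 6 libraries. ERS1 averaged 46.2 ± 17.4 CPM and ETR1 34.0 ± 17.1 CPM, with ERS1 above ETR1 in 5 of 6. The remaining genes, HLS1, CTR1, ERS2 and ETR2, averaged 16.2 ± 6.30, 14.2 ± 6.09, 11.1 ± 2.95 and 7.24 ± 5.25 CPM. Neighbours in that stretch kept their order in only 4, 4 and 3 of 6 libraries.

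The receptor gene ETR2 had the widest difference between the groups, and its control values were themselves far apart. ETR2 (AT3G23150) encodes a receptor of subfamily II, which lacks the full set of histidine kinase features. Its level was 2.31, 5.90 and 0.0576 CPM in control replicates 1 to 3 and 11.8, 11.6 and 11.8 CPM in traffic noise replicates 1 to 3. Every traffic noise library lay above every control library. Such a gap with traffic noise above was found for 2 of the 10 genes and for 8.99% of all loci, and 0 of 10 showed the opposite gap, where 7.39% of loci did. Group means were 2.75 ± 2.95 and 11.7 ± 0.0912 CPM (SD, n = 3), a 4.26-fold difference, and the fitted log2 fold change was 2.09 ± 1.05 (SE; edgeR adjusted p = 0.739). Control replicate 3 held 1 read of ETR2, with a 95% exact Poisson interval of 0.00146 to 0.321 CPM that covers counting error only. Without that library the log2 fold change was 1.52, and edgeR's adjusted p was 0.490. The part that the missing loci of control replicate 3 play in this difference was not tested.

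Levels of the other receptor genes overlapped between the groups. ERS1 (AT2G40940), a subfamily I receptor, stood at 63.1, 41.0 and 15.1 CPM in control libraries and 60.9, 47.9 and 49.2 CPM in traffic noise, so all traffic noise values fell inside the control range. Its log2 fold change of 0.41 ± 0.43 (SE; edgeR adjusted p = 0.950) was 0.02 without control replicate 3. ETR1 (AT1G66340), the founding receptor of the family and also of subfamily I, stood at 22.8, 22.2 and 67.7 CPM in control libraries and 32.3, 26.7 and 32.3 CPM in traffic noise. The high value of control replicate 3 goes with the sign of the difference. The log2 fold change was -0.30 ± 0.43 with all libraries (SE; edgeR adjusted p = 0.970) and 0.44 without that library (edgeR adjusted p = 0.766). ERS2 (AT1G04310), of subfamily II, was at 10.1, 9.45 and 17.0 CPM in control libraries and 9.21, 10.7 and 10.1 CPM in traffic noise. It too had a negative log2 fold change, -0.28 ± 0.45 (SE; edgeR adjusted p = 0.970), that was 0.04 without control replicate 3. ETR1 and ERS1 each overlap a neighbouring locus, by 38 and 56 bases. In no library did the counts match those of the neighbour. Whether reads in the overlap were counted for both was not tested.

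The 4 receptor genes summed to 78.5 to 114 CPM, and ERS1 was the largest part in every library other than control replicate 3. The sum was 98.2, 78.5 and 99.9 CPM in control libraries and 114, 96.9 and 103 CPM in traffic noise. ERS1 made up 47.6% to 64.2% of that sum in 5 libraries and ETR1 23.2% to 31.3%. In control replicate 3 the order was turned, with ETR1 at 67.8% (95% Wilson interval 65.5 to 69.9, counting error only) and ERS1 at 15.2% (13.6 to 16.9). ETR2 supplied 10.3% to 12.0% of the sum in traffic noise and 0.0577% to 7.52% in control. EIN4, the remaining receptor gene of Arabidopsis, had 15.8, 12.0 and 9.04 CPM in control libraries and 13.8, 8.42 and 2.49 CPM in traffic noise. Its log2 fold change was -0.58 ± 0.62 (SE; edgeR adjusted p = 0.953), -0.14 without traffic noise replicate 3, -0.35 without control replicate 1 and -1.17 without traffic noise replicate 1.

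**Figure D2:**
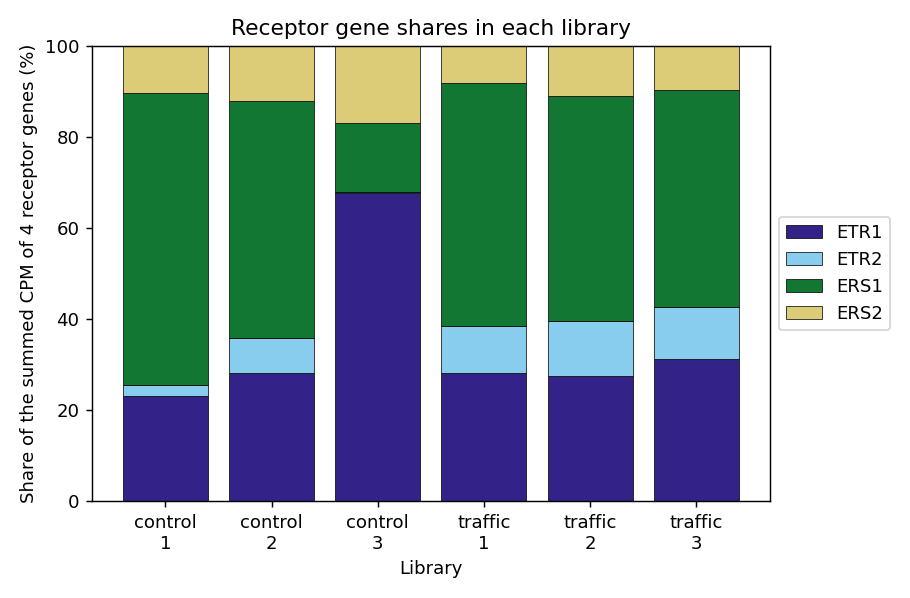
Share of each receptor gene in the summed CPM of ETR1, ETR2, ERS1 and ERS2, in percent, 1 bar per library. ERS1 is the largest part in every library other than control replicate 3, where ETR1 takes 67.8%, and ETR2 takes 10.3% to 12.0% in the traffic noise libraries.

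Downstream of the receptors, CTR1 and EIN2 had higher means in traffic noise, by amounts that did not pass the test. CTR1 (AT5G03730), the kinase that holds the pathway off, had 8.54, 10.1 and 15.8 CPM in control libraries and 25.4, 11.3 and 14.1 CPM in traffic noise. Its values overlapped, and traffic noise replicate 1 was the highest of all. The log2 fold change was 0.56 ± 0.46 (SE; edgeR adjusted p = 0.919), 0.14 without that library and 0.86 without control replicate 3. EIN2 (AT5G03280), without which seedlings are insensitive to ethylene, varied little, with 96.1, 100.7 and 78.6 CPM in control libraries and 107.9, 106 and 101.5 CPM in traffic noise. It was the other of the 2 genes whose groups did not overlap. The margin was small: means were 91.8 ± 11.6 and 105 ± 3.33 CPM (SD, n = 3), and the log2 fold change was 0.20 ± 0.22 (SE; edgeR adjusted p = 0.955). Without control replicate 3 it was 0.10.

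EIN3 was the most even of the 10 genes across the control libraries. EIN3 (AT3G20770) had 152, 186 and 167 CPM in control libraries and 160.2, 211 and 171 CPM in traffic noise, with overlapping groups and a coefficient of variation of 10.1% in control and 14.7% in traffic noise. EIN3 activity is known to be set mainly by the stability of its protein, which these counts do not measure. Its log2 fold change was 0.10 ± 0.21 (SE; edgeR adjusted p = 0.979), 0.09 without control replicate 3 and -0.01 without traffic noise replicate 2. EIL1, the close relative of EIN3 with an overlapping function, averaged 24.7 ± 2.98 CPM in control libraries and 27.7 ± 3.02 CPM in traffic noise (SD, n = 3), with a log2 fold change of 0.16 ± 0.30 (SE; edgeR adjusted p = 0.976) that was 0.26 without control replicate 3.

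EBF1 and EBF2, whose products recognise EIN3 for degradation, were low in some control libraries and not in others. EBF1 (AT2G25490) stood at 51.9, 153 and 48.2 CPM in control libraries and 126, 147 and 100.1 CPM in traffic noise. Control replicates 1 and 3 lay below all traffic noise libraries, while control replicate 2 was the highest of all 6. The log2 fold change was 0.56 ± 0.41 (SE; edgeR adjusted p = 0.886), 0.28 without control replicate 3 and 1.32 without control replicate 2, where edgeR's adjusted p was 0.0943. EBF2 (AT5G25350) had 124, 165 and 75.4 CPM in control libraries and 147, 142 and 161 CPM in traffic noise, which overlapped. Its log2 fold change was 0.31 ± 0.28 (SE; edgeR adjusted p = 0.937) and 0.06 without control replicate 3. The ratio of the EBF2 row to the EBF1 row was 2.38, 1.08 and 1.57 in control and 1.17, 0.963 and 1.61 in traffic noise.

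The counts of EBF2 cannot be assigned to that gene alone. In 6 of 6 libraries its row held exactly the count of AT5G25340, a gene for a ubiquitin-like protein, from 1309 to 3300. In the TAIR10.1 annotation the genes lie tail to tail on opposite strands and overlap by 533 bases at their 3′ ends, the part that these libraries read. No other member of the 10 shared its counts with another row. Among the 12692 tested loci that averaged 100 counts or more, 101 had the same counts as another row in all libraries, which is 0.796%.

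HLS1 (AT4G37580) encodes an acetyltransferase-like protein without which the apical hook does not form. It stood at 7.70, 16.8 and 11.3 CPM in control libraries and 25.6, 20.0 and 15.6 CPM in traffic noise. Control replicate 2 lay above traffic noise replicate 3, so the groups overlapped. Means were 12.0 ± 4.59 and 20.4 ± 4.997 CPM (SD, n = 3), and the log2 fold change of 0.77 ± 0.42 (SE; edgeR adjusted p = 0.777) did not pass the test. It was 0.73 without control replicate 3, and lay between 0.53 and 1.10 when each library was left out in turn.

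**Figure D3:**
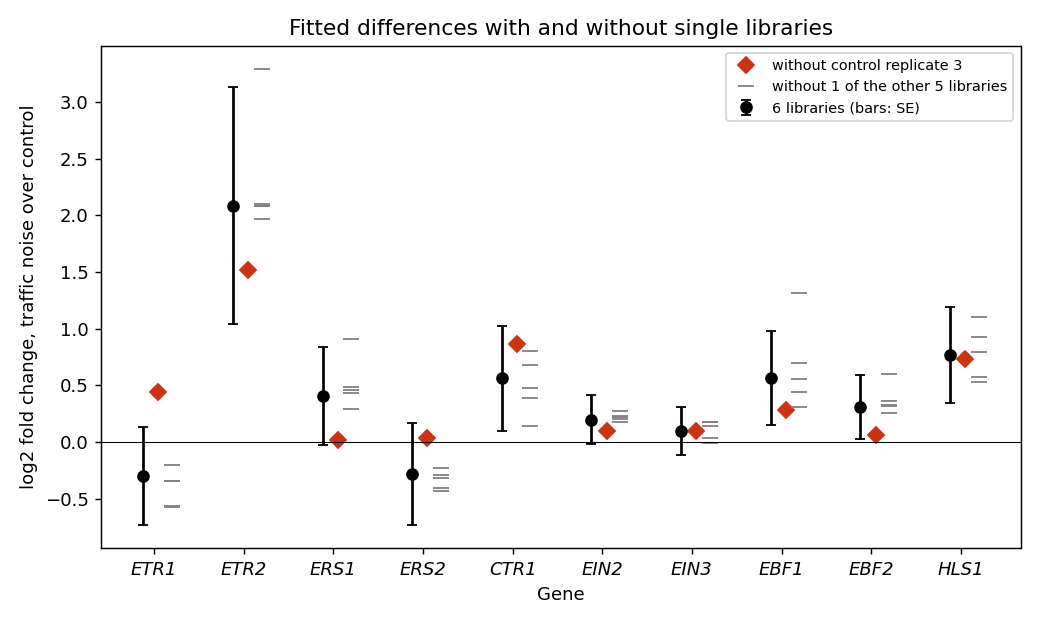
Fitted log2 fold change of traffic noise over control for each of the 10 genes; black points with bars are the fit on 6 libraries and its SE, diamonds leave out control replicate 3, and grey dashes leave out 1 of the other 5 libraries. ETR1 and ERS2 lie below 0 with all libraries and above 0 without control replicate 3, and ETR2 lies between 1.52 and 3.29 in the fits that leave out 1 library.

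For 8 of the 10 genes, CTR1 and EIN3 excepted, the coefficient of variation was larger in control than in traffic noise. The median coefficient of variation of the 10 was 37.7% in control and 12.1% in traffic noise. For the 10083 tested loci in the same range of mean counts the medians were 35.2% and 21.8%. Control replicate 3 was the lowest library for 5 of the 10 genes, namely ETR2, ERS1, EIN2, EBF1 and EBF2, and for 38.2% of all loci. It was the highest for ETR1 and ERS2, and for 24.1% of all loci. Without it the groups did not overlap for 4 of 10 genes, CTR1, EIN2, ETR1 and ETR2, all with traffic noise above, where 12.9% of loci had such a gap.

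Other genes of ethylene perception and signalling split in sign. Of 8 listed, 7 were tested, 4 had log2 fold changes above 0 and 3 below, with a median of 0.02, and 0 passed edgeR in either direction. Without control replicate 3 the median was -0.22. RTE1, a membrane protein gene that promotes ETR1 function, had 10.0 ± 6.85 CPM in control libraries and 15.3 ± 3.39 CPM in traffic noise (SD, n = 3), with a log2 fold change of 0.61 ± 0.58 (SE; edgeR adjusted p = 0.941). That of RTE1 was 0.17 without control replicate 3 and 1.18 without control replicate 2. For RAN1, a copper transporter gene needed to build working receptors, it was 0.22 ± 0.24 (SE; edgeR adjusted p = 0.952). ETP1, an F-box gene whose product marks EIN2 for degradation, had 9.91, 12.4 and 14.3 CPM in control libraries and 4.63, 7.97 and 9.68 CPM in traffic noise. Its traffic noise values all lay below control, by a small margin (9.68 against 9.91 CPM), and 7.39% of all loci had such a gap. The log2 fold change of ETP1, -0.72 ± 0.49, did not pass (SE, edgeR adjusted p = 0.871).

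Ethylene synthesis genes were mostly low in these seedlings. The hormone is made from its precursor ACC, which ACC synthases form and ACC oxidases convert. Of 16 listed, 14 matched a row that no other gene shared, and 11 of these were tested. Log2 fold changes were above 0 for 8 and below for 3, the median was 0.47, and 0 passed edgeR. The median lay between 0.17 and 0.71 when each library was left out in turn. ACS6, an ACC synthase gene, had 4.96, 3.33 and 0.806 CPM in control libraries and 6.30, 6.35 and 9.28 CPM in traffic noise. The groups did not overlap, as for 8.99% of all loci with traffic noise above (log2 fold change 1.27 ± 0.86, SE, edgeR adjusted p = 0.864). AT1G12010, annotated as an oxygenase of the superfamily that holds the ACC oxidases, had 12.5 ± 8.05 and 27.1 ± 12.9 CPM (SD, n = 3; log2 fold change 1.12 ± 0.57, SE; edgeR adjusted p = 0.743). For ETO1, whose product limits ACC synthase, the log2 fold change was 0.47 ± 0.39 (SE; edgeR adjusted p = 0.919), and for ACS2 it was 0.56 ± 0.65 (SE; edgeR adjusted p = 0.955). Without control replicate 3 the log2 fold changes were 0.82 for ACS6, 0.70 for AT1G12010 and 0.27 for ETO1. ACS9 was at 0 in all 6 libraries.

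All 8 tested genes of the response target list had log2 fold changes above 0, as did 52.5% of all loci. Their median was 0.54, and 0 of them passed edgeR. Without control replicate 3 the median was 0.41, with 7 above 0 and 1, EDF3, below (-0.13), and EDF3 was also below 0 without control replicate 1 or without traffic noise replicate 1. The list held 13 genes, and ESE1 and PDF1.2 were at 0 in all 6 libraries. ERF1, ERF2 and ERF11 had too few counts to be tested. Means in control and traffic noise were 0.604 and 0.391 CPM for ERF1 and 0.854 and 0.443 CPM for ERF2. For ERF11 they were 0 and 0.766 CPM. RAV2, a gene for an ethylene-responsive transcription factor, had 57.3, 52.1 and 52.5 CPM in control libraries and 96.1, 99.8 and 91.6 CPM in traffic noise. The groups were tight and far apart, with means of 54.0 ± 2.86 and 95.8 ± 4.10 CPM (SD, n = 3). Its log2 fold change was 0.83 ± 0.22 (SE; edgeR adjusted p = 0.479), and it was the 1 tested member of the list with an unadjusted p under 0.05, a level that 3.48% of all loci reached in that direction. DESeq2 called RAV2 (adjusted p = 0.0319), among the 216 of 4322 loci that it called, and limma-voom did not (adjusted p = 0.273). Without control replicate 3 the log2 fold change was 0.81. RAV1, a related factor, had 31.8, 91.6 and 21.8 CPM in control libraries and 93.9, 94.45 and 88.5 CPM in traffic noise, and so was low in the same control libraries as EBF1 (log2 fold change 0.93 ± 0.45, SE; edgeR adjusted p = 0.713). For RAV1 it was 0.58 without control replicate 3 (edgeR adjusted p = 0.710) and 1.78 without control replicate 2 (edgeR adjusted p = 0.0546). The log2 fold change was 1.10 ± 0.99 for the chitinase gene HCHIB and 0.24 ± 0.22 for the growth gene ARL (SE; edgeR adjusted p = 0.936 and 0.937). That of HCHIB was 0.54 without control replicate 3 and 3.02 without control replicate 2.

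Other genes of the apical hook were also without a call. Of 13 listed and tested, 9 had log2 fold changes above 0 and 4 below, with a median of 0.11. In edgeR 2, SHY2 and WAG2, were higher at an unadjusted p under 0.05, as were 3.48% of all loci. Traffic noise lay above control without overlap for 3, SHY2, WAG2 and PIF3, where 8.99% of all loci had such a gap. WAG2, a kinase gene that acts on auxin transport, had 16.2, 10.2 and 16.4 CPM in control libraries and 22.5, 22.7 and 29.1 CPM in traffic noise. The groups did not overlap, and the log2 fold change was 0.80 ± 0.36 (SE; edgeR adjusted p = 0.669). PIF3, a transcription factor gene of growth in the dark, had 12.5, 15.5 and 7.72 CPM in control libraries and 22.4, 19.3 and 18.8 CPM in traffic noise, again without overlap (log2 fold change 0.76 ± 0.40, SE; edgeR adjusted p = 0.758). SHY2, an auxin response repressor gene, overlaps a neighbouring locus. It had 67.3, 87.1 and 44.4 CPM in control libraries and 98.3, 142 and 136 CPM in traffic noise. Its log2 fold change was 0.92 ± 0.29 (SE, edgeR adjusted p = 0.493) and 0.70 without control replicate 3. The auxin efflux gene PIN4 had a log2 fold change of -0.38 ± 0.30 (SE; edgeR adjusted p = 0.913).

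Markers of green tissue differed in unlike directions between the same libraries. CAB1, a chlorophyll-binding protein gene, lay at 366 to 883 CPM in control libraries and 1116 to 1315 CPM in traffic noise. RBCS3B, a Rubisco small subunit gene, lay at 1656 to 1862 CPM in control libraries and 1166 to 1416 CPM in traffic noise. Of the 5 cotyledon and dark-growth markers, 1 had a log2 fold change above 0 and 4 below, and 0 passed edgeR. DESeq2 called CAB1 (adjusted p = 0.0477), as it did 5% of loci, and limma-voom did not (adjusted p = 0.141). Of 5 tested root markers 2 had a log2 fold change above 0 and 3 below. The part of these tissue markers in the differences given for the ethylene and hook genes was not tested.

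**Figure D4:**
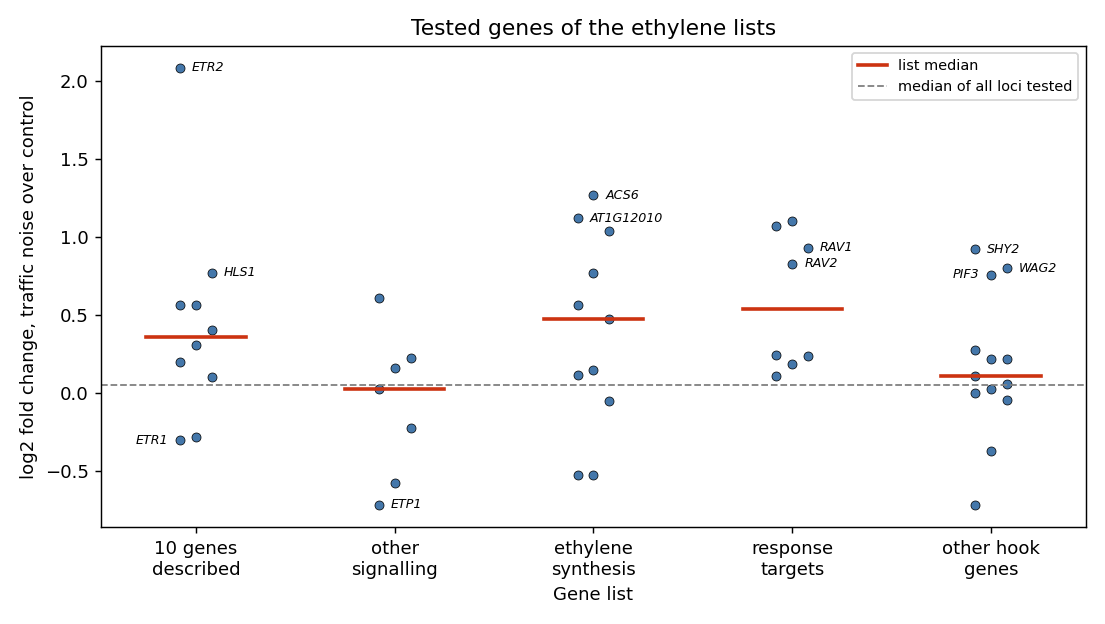
Log2 fold change of traffic noise over control for each tested gene of the 10 genes described and of 4 other gene lists; red lines are list medians and the dashed line is the median of all loci tested, 0.05. All 8 tested response targets lie above 0 with 6 libraries, though EDF3 lay at -0.13 without control replicate 3, while the other signalling genes lie on both sides with a median of 0.02.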

How the data were processed

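Per the labels' protocols, RNA was extracted with Trizol and made into libraries with the Lexogen QuantSeq kit, which reads transcript 3′ ends. The submitters' processing notes name Bowtie2, bedtools and the build TAIR10, without roles; for versions, strand use and multiple matches, nothing is given in the sources used here. The authors deposited raw counts per gene symbol, 33139 rows a library, of which 218 without a gene name (0.0431% to 0.0886% of counts) were left out. The TAIR10.1 annotation served for locus names and overlaps only.

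Loci were kept by filterByExpr (19112) and scaled by TMM. The main test was edgeR's robust quasi-likelihood F test, with Benjamini-Hochberg adjustment over all loci at 0.05; SEs are absolute log2 fold changes divided by the square root of F. A floor of 3 counts is 0.147 to 0.173 CPM. Same-numbered libraries did not deviate together, so no block was used. DESeq2, limma-voom, other scalings and filters, a replicate block and leaving out each library were alternatives. Scripts were tested on simulated data. Members and lists were chosen with earlier results of these data known. Named genes were the 10 members, EIN4, EIL1 and, per list, up to 4 tested genes with the smallest p; others named are at 0, markers, or were chosen after their values were seen. Software was R 4.3.3, edgeR 4.0.16, DESeq2 1.42.0, limma 3.58.1, Python 3.11.15, pandas 2.3.3 and matplotlib 3.10.9.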

Additional observations from a re-analysis of the deposited data

How the results depend on the processing

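No gene of the 10 was called in the alternatives that tested it, 13 in all; DESeq2 gave no adjusted p to ETR2, ERS2, CTR1 and HLS1, and these 4 were not tested at a mean of at least 500 counts. In the rest edgeR's, DESeq2's or limma-voom's adjusted p was at least 0.0943 (EBF1 without control replicate 2). Of 126 fold changes of single genes under alternatives, 123 kept their sign. The 3 that did not were ETR1 and ERS2 without control replicate 3 and EIN3 without traffic replicate 2. When libraries were left out in turn, the log2 fold change of ETR1 ran from -0.57 to 0.44, of ERS2 from -0.44 to 0.035 and of EIN3 from -0.011 to 0.18; the cause was not tested. The median of the 10 genes lay between 0.19 and 0.45 when libraries were left out in turn, with the lowest value without control replicate 3, and the number whose groups did not overlap between 2 and 5. The 5 were reached without control replicate 2, where 19.3% of loci had traffic noise above. The number of loci called was 2 in the main test, 216 in DESeq2, 14 in limma-voom, 6 without a filter on low counts, 4 at a mean of at least 500 counts, and 0 to 31 when libraries were left out in turn. With the replicate number as a block edgeR called 0 loci, with 1369 at an unadjusted p under 0.05, EBF1 and ETR2 among them. The same numbers gave correlations of deviations of -0.01, 0.01 and 0.02. Whether same-numbered samples shared a plate or a preparation is not given in the labels. In limma-voom the median over all loci was 0.16, and in the block fit 0.15, against 0.05 in the main test. At the depth of control replicate 3, the 1 read counted for ETR2 has a 95% exact Poisson interval of 0.00146 to 0.321 CPM. That interval covers counting error only, not the loss of loci in that library.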
